A study of Mus musculus with 8 samples.

Results

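The 46 genes described here encode factors that make ribosomes and proteins of the nucleolus: those that transcribe ribosomal RNA, process and modify it, and assemble the small (40S) and large (60S) ribosomal subunits. They were taken by gene symbol from a list of names, which was chosen with earlier results of these data known. All 46 were found among the 55011 symbols of the count table, and all 46 were among the 12414 genes with enough counts to be tested. By role they comprised 4 genes of rRNA transcription, 3 of the box C/D and 3 of the box H/ACA small nucleolar ribonucleoproteins (snoRNPs), 4 abundant nucleolar proteins, 10 of the small subunit processome, 4 of late 40S maturation and 18 of 60S assembly.

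Gene expression was measured by RNA sequencing, in 8 libraries, in regulatory T cells (Tregs) of mice, the Foxp3-expressing CD4 T cells that restrain immune responses. The 4 groups had 2 libraries each: Tregs from skin or spleen of 2-week-old mice (day 13 in the library names) that were either Pparg+/+ Foxp3-Cre, here WT, or Ppargf/f Foxp3-Cre, here KO. All groups carried Foxp3-Cre, so the controls express the recombinase too. Cre made under Foxp3 control removes the floxed gene in cells that express Foxp3, and Pparg encodes the nuclear receptor PPAR-gamma, which marks Tregs of fat and skin. No group was treated. The question posed by the design is what loss of Pparg changes in the Treg transcriptome of each tissue. How many animals a library holds, and their strain background, the sources used here do not give. The p-values therefore speak only to the spread between these libraries, in which sex is included.

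Ribosome production starts in the nucleolus, where RNA polymerase I copies the ribosomal RNA genes into a long precursor. SnoRNPs guide the chemical modification of that precursor, the small subunit processome folds and cuts the part that becomes the 40S subunit, and a separate set of factors builds the 60S subunit around the rest. Many genes of this pathway are known targets of the growth-promoting transcription factor MYC, and activated T cells raise ribosome production before they divide.

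Library totals ran from 3115832 to 4466963 counts, and levels are given below in CPM, the usual counts per library size, with that size adjusted by the trimmed mean of M values (TMM). Pparg itself was at 75.7 and 59.8 CPM for WT skin, 8.46 and 13.3 for KO skin, 22.5 and 12.3 for WT spleen and 2.16 and 1.66 for KO spleen, so it was lower in every KO library than in the WT libraries of its tissue. The 6 Treg markers, Foxp3 and Il2ra among them, summed to 5263 to 6039 CPM in the skin libraries and to 2544 to 2712 CPM in those of the spleen. Of the 8 marker lists of other cells, those of keratinocytes (1.59 to 3.32 CPM), erythroid cells (0.302 to 10.3 CPM), fibroblasts (1.08 to 17.02 CPM, with Pdgfra and Lum at 0), myeloid cells (3.91 to 20.4 CPM, with S100a8 at 0), CD8 T and NK cells (8.18 to 30.6 CPM) and B cells (18.1 to 45.6 CPM) stayed low. Those of Langerhans and dendritic cells reached 252 CPM in skin, and those of endothelial cells reached 371 CPM in spleen. Only 3 of the 6 Langerhans and dendritic cell markers and 1 of the 6 endothelial markers had enough counts to be tested. Replicate 1 of each group carried Xist (421 to 610.5 CPM) and replicate 2 carried 4 genes of the Y chromosome (summed 262 to 411 CPM), so the replicates of a group also differed in sex.

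The 46 genes together held 0.355 to 0.470% of all counts of a library. At least 10 counts were present in every library for 45 of them. The exception was Gar1, at 2 to 20 counts, whose highest counts were those of WT spleen. It reached 10 counts in that group only and so was tested because of it. Its range over the groups is therefore not independent of the low-count filter. The levels per kb of exon, averaged over the 8 libraries, put the histone chaperone and nucleolar scaffold gene Npm1 first at 144 CPM per kb. Next came Rrp1, of early 60S assembly, at 91.3 CPM per kb and Ncl, which encodes the rRNA-binding protein nucleolin, at 84.7 CPM per kb. The highest of the other classes were Nop56, of the core of box C/D snoRNPs (54.2 CPM per kb), Nhp2, of the H/ACA snoRNPs (50.6), Ddx10, an RNA helicase of the processome (34.2), Ltv1, of late 40S maturation (31.5) and Mybbp1a, which binds RNA polymerase I factors (18.4). The lowest were Gar1 of the H/ACA snoRNPs at 1.27 CPM per kb and Fbl, the methyltransferase of the C/D snoRNPs, at 1.30 CPM per kb. These lengths are the union of all annotated exons of a gene, and short reads that match several places can lower a gene's count.

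Across the 4 groups, most of the genes varied little. The highest group mean was within 1.5-fold of the lowest for 31 of the 46 genes and within 2-fold for 43. The 3 others were Rrs1, with group means up to 10.7-fold apart, Gar1 (4.70-fold) and Fbl (2.07-fold). The summed level of all 46 genes was 4044 and 4030.4 CPM for WT skin, 4595 and 3824 for KO skin, 4359.8 and 4028.5 for WT spleen and 4075 and 4211 for KO spleen. The ranges of this sum overlapped for every pair of groups except WT skin and KO spleen. In bulk libraries of this kind a smaller share of cells with a transcript and less of it per cell cannot be told apart.

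**Figure D1:**
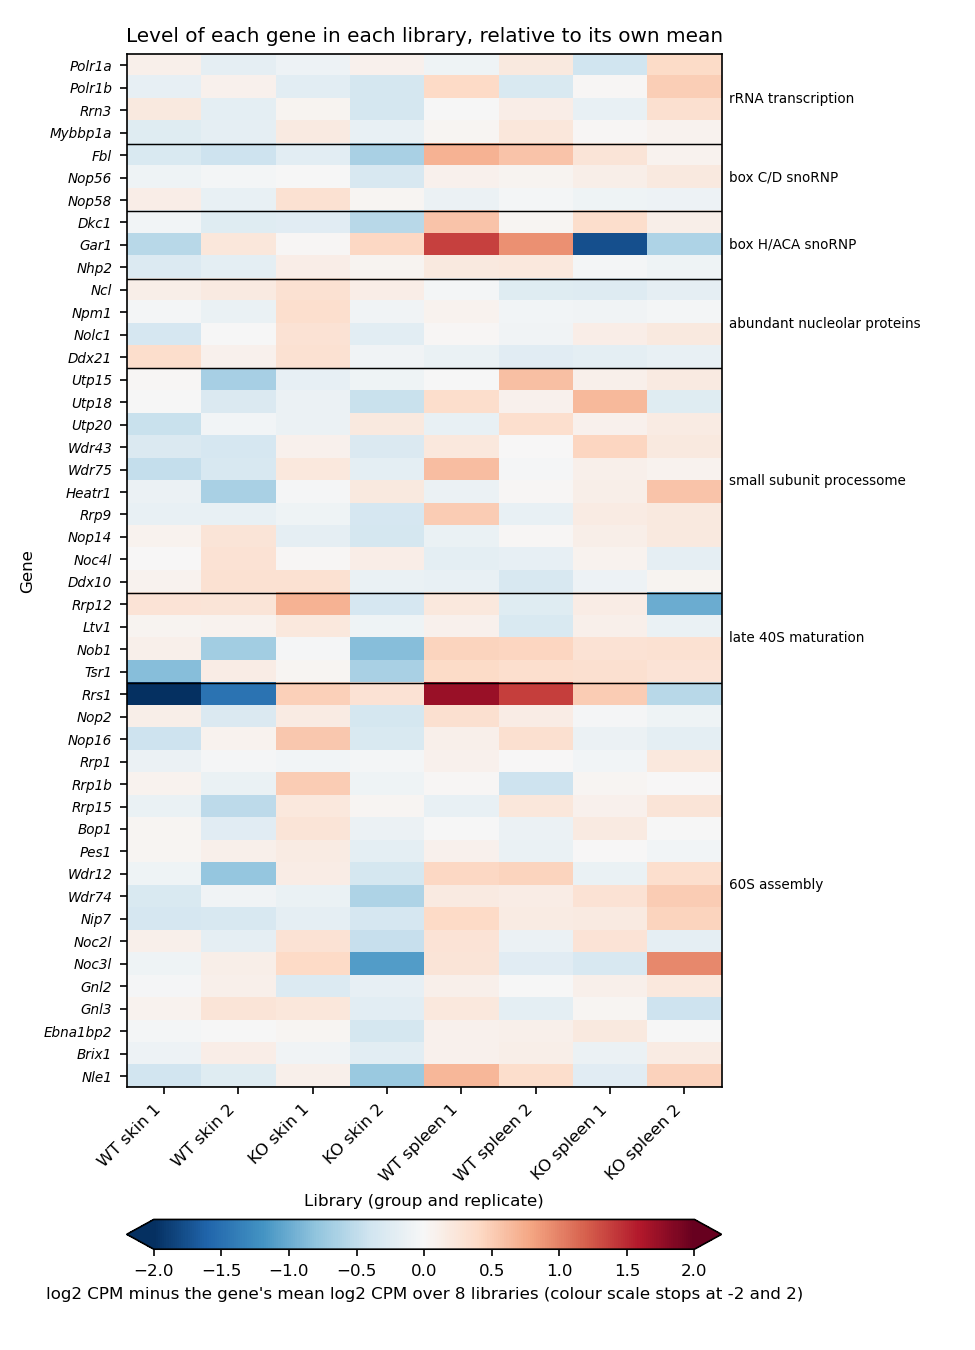
Level of each of the 46 genes (lines, ordered by role) in each of the 8 libraries (columns), as log2 CPM minus the gene's own mean over the libraries. Red is above and blue below that mean, with the colour scale ending at 2 on either side. Most genes stay near their mean in every library, while Rrs1 runs from 2.71 CPM in a WT skin library to 46.1 CPM in a WT spleen library.

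**Figure D2:**
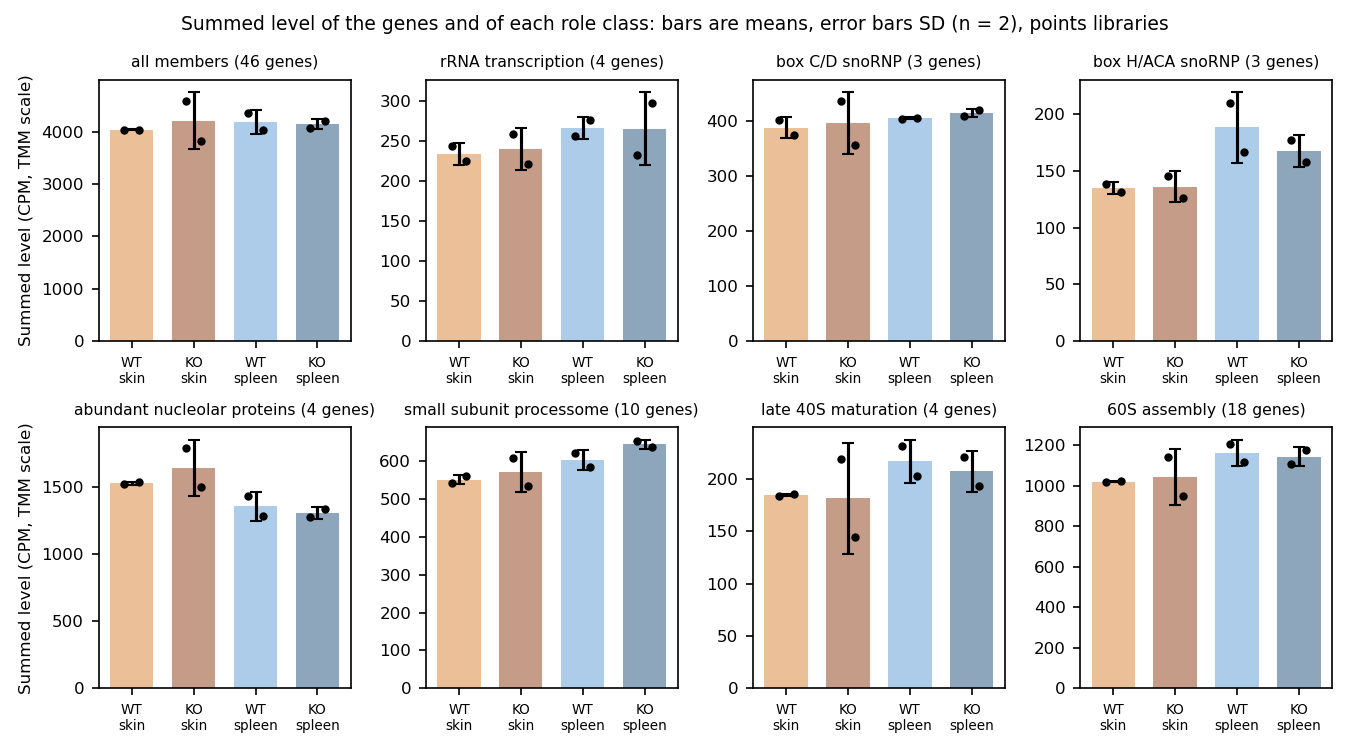
Summed level in CPM (vertical axes, each from 0) of all 46 genes and of each role class in the 4 groups. Bars are group means, error bars are SD (n = 2) and points are libraries. The sum over all 46 genes lies between 3824 and 4595 CPM in all 8 libraries.

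In skin, loss of Pparg was accompanied by a rise of 1 of the 46 genes, Rrs1, and by no detectable change of the other 45. Rrs1 encodes a factor that brings the 5S rRNA particle into the early 60S subunit. It was at 2.71 and 4.98 CPM in WT skin (11 and 14 counts), against 19.3 and 16.9 CPM in KO skin (73 and 56 counts), so both KO libraries lay above both WT libraries. Its log2 fold change was 2.13 ± 0.404 (SE), a 4.38-fold rise, with an edgeR quasi-likelihood adjusted p of 0.0162. The 1 call among 46 genes is 2.17%, against 0.894% of all tested genes called in either direction and 0.306% called higher. The list, Rrs1 included, was chosen with earlier results of these data known, so these shares cannot be weighed against each other. At an unadjusted p under 0.05, 1 gene was higher (Rrs1) and 1 lower (Nop14), where 10.8% of all tested genes passed. The median log2 fold change of the 46 genes was 0.02, against 0.01 for all tested genes. Changes within 0.5 on the log2 scale were found for 45 of the 46 genes (97.8%), against 77.0% of all tested genes. In the same comparison 5 of 29 tested dissociation and heat shock genes were lower in KO skin (median log2 fold change -0.34). Of the 3 tested Langerhans and dendritic cell markers, Xcr1 was lower in KO skin, at 90.8 and 87.2 CPM in WT against 15.3 and 6.34 CPM in KO (log2 -2.96, edgeR adjusted p = 0.00395). Epcam (-0.20, adjusted p = 0.809) and Zbtb46 (1.03, adjusted p = 0.462) did not pass the test. The part of these genes in the value of Rrs1 was not tested.

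The call of Rrs1 in skin was not held by every library. It ended without WT skin replicate 1 (log2 1.75, edgeR adjusted p = 0.241), without KO skin replicate 1 (2.03, 0.130), without KO skin replicate 2 (2.22, 0.0533) and with limma-voom in place of edgeR (adjusted p = 0.0652). The direction was the same in all 17 alternatives. Rrs1 lies at chr1:9545408-9547455 on the plus strand (GRCm38, GENCODE M21, identifier ENSMUSG00000061024.8). It is a gene of 1 exon of 2048 bases that shares no exon base with another annotated gene. The next gene on the same strand, Adhfe1, starts at position 9547948 and had 0 to 9 counts in a library.

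The remaining genes in skin are given by role. Of the rRNA transcription genes, Mybbp1a was at 90.03 and 93.95 CPM in WT and 120.0 and 95.6 CPM in KO (log2 0.23 ± 0.153, edgeR adjusted p = 0.635). Polr1b, the second-largest subunit of RNA polymerase I, was at 22.7 and 27.0 CPM in WT and 21.9 and 19.9 CPM in KO (-0.24 ± 0.292, adjusted p = 0.846). The KO libraries were above the WT libraries for the former and below them for the latter, by less than the test resolves.

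No gene of either snoRNP class passed the threshold in skin. Nop58, a core protein of C/D snoRNPs, was at 189 and 155 CPM in WT and 211 and 176 CPM in KO (log2 0.17 ± 0.137, edgeR adjusted p = 0.726). Its partner Nop56 was at 208 and 214 CPM in WT and 219 and 177 CPM in KO (-0.09 ± 0.126, adjusted p = 0.869). The groups overlapped for both. Nhp2 was at 47.6 and 50.2 CPM in WT and 63.4 and 60.03 CPM in KO, with no overlap (0.33 ± 0.183, adjusted p = 0.556). Dkc1, the pseudouridine synthase of H/ACA snoRNPs, was at 89.8 and 79.0 CPM in WT and 80.3 and 63.7 CPM in KO, with overlap (-0.23 ± 0.189, adjusted p = 0.730).

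Among the abundant nucleolar proteins, Npm1 was at 372 and 350.2 CPM in WT skin against 483 and 367 CPM in KO skin (log2 0.23 ± 0.124, edgeR adjusted p = 0.533). Nolc1, a snoRNP chaperone, was at 64.1 and 80.1 CPM in WT and 98.3 and 69.4 CPM in KO (0.22 ± 0.186, adjusted p = 0.732). For both genes only KO skin replicate 1 lay above the 2 WT libraries.

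None of the 10 processome genes passed. Nop14, a 40S assembly factor, was at 51.8 and 58.7 CPM in WT skin against 43.3 and 38.3 CPM in KO skin (log2 -0.43 ± 0.199, edgeR adjusted p = 0.448). Wdr75 was at 37.2 and 41.6 CPM in WT and 59.98 and 45.3 CPM in KO (0.42 ± 0.231, adjusted p = 0.563). Neither gene's groups overlapped, and neither passed the threshold. Ddx10 was at 111 and 131 CPM in WT and 130.3 and 96.5 CPM in KO, with a log2 fold change of -0.08.

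None of the 4 late 40S factors or of the other 17 genes of 60S assembly passed the threshold. Nob1, the nuclease that makes the final cut of 18S rRNA, was at 55.2 and 32.0 CPM in WT skin against 51.0 and 28.7 CPM in KO skin, a log2 fold change of -0.14. Those of Tsr1 (23.4 and 47.0 CPM in WT, 43.3 and 27.2 CPM in KO) and Ltv1 (75.2 and 76.5 CPM in WT, 84.0 and 68.5 CPM in KO) were 0.03 and 0.01. Gnl2, a nucleolar GTPase of 60S export, was at 79.9 and 87.2 CPM in WT and 67.1 and 72.7 CPM in KO, without overlap (-0.25 ± 0.160, edgeR adjusted p = 0.617). Rrp1 was at 281 and 299 CPM in WT and 294 and 296 CPM in KO, with a log2 fold change of 0.02 ± 0.117. The libraries of the 2 genotypes did not overlap for 10 of the 46 genes, of which 7 were above WT and 3 below it, where 39.9% of all tested genes did not overlap.

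In spleen, none of the 46 genes passed the threshold with edgeR, where 0.282% of all tested genes did. At an unadjusted p under 0.05, 0 genes were higher and 2 lower, Rrs1 and Gar1, against 7.83% of all tested genes. DESeq2 and limma-voom each called 1 gene lower, Rrs1. That gene was at 46.1 and 36.3 CPM in WT spleen (197 and 127 counts), against 19.7 and 9.49 CPM in KO spleen (73 and 40 counts), so both KO libraries were below both WT libraries. Its log2 fold change was -1.48 ± 0.343 with an edgeR adjusted p of 0.105, and DESeq2 gave -1.49 with an adjusted p of 0.0418. Limma-voom gave -1.62 with an adjusted p of 0.0371. With no low-count filter edgeR also called it (-1.46, adjusted p = 0.00177), as it did without KO spleen replicate 1 (-2.05, adjusted p = 0.0186). Without each of the other spleen libraries it was not called: the edgeR value was -1.05 (adjusted p = 0.762) without KO spleen replicate 2, -1.29 (0.574) without WT spleen replicate 1 and -1.62 (0.260) without WT spleen replicate 2.

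Gar1, an H/ACA core protein, had 20 and 12 counts in WT spleen against 2 and 5 in KO spleen (log2 -1.71 ± 0.684, edgeR adjusted p = 0.520). At this depth its change was not detectable. Gar1 passed the low-count filter through its WT spleen counts alone, so its lower counts in KO spleen are not independent of that filter. The median log2 fold change of the 46 genes in spleen was -0.01, and 44 of them (95.7%) changed by under 0.5 on the log2 scale, against 80.7% of all tested genes. The libraries did not overlap for 7 genes higher and 9 lower in KO spleen, where 38.6% of all tested genes did not overlap.

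Averaged over both tissues, 0 of the 46 genes were called by edgeR, and 0 by DESeq2 or limma-voom, where 0.789% of all tested genes were. At an unadjusted p under 0.05, 1 was higher, against 9.44% of all tested genes. That gene was Heatr1, a processome scaffold also needed for rRNA transcription. It was at 34.0 and 23.5 CPM for WT skin, 36.2 and 41.9 for KO skin, 33.7 and 37.5 for WT spleen and 39.7 and 54.6 for KO spleen. Its mean log2 change was 0.41 ± 0.173 (edgeR adjusted p = 0.429), and it was the 1 gene of the 46 whose KO libraries lay above the WT libraries in both tissues, a pattern held by 3.61% of all tested genes.

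The genotype effect differed between the tissues for 1 of the 46 genes, again Rrs1. The difference of its 2 log2 fold changes, skin minus spleen, was 3.61 ± 0.530 with an edgeR adjusted p of 0.0114. It was the third smallest p of the 12414 genes, of which 12 (0.0967%) were called in this comparison and 9 (0.0725%) had a positive difference. The call ended without WT skin replicate 1 (3.23, adjusted p = 0.111) or without KO skin replicate 1 (3.51, adjusted p = 0.106), and held in the other 14 of 16 alternatives. Averaged over the tissues the values of opposite sign left 0.33 ± 0.238 (adjusted p = 0.750).

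In group means, Rrs1 stood at 3.85 ± 1.60 CPM in WT skin, 14.6 ± 7.21 CPM in KO spleen, 18.1 ± 1.69 CPM in KO skin and, highest, 41.2 ± 6.90 CPM in WT spleen (SD, n = 2). The KO groups of the 2 tissues are neighbours in this order and overlap, with 1 KO spleen library above and 1 below both KO skin libraries. The WT groups are its ends and overlap with no other group. Nhp2 had the same directions without overlap in either tissue: it was at 66.2 and 66.4 CPM in WT spleen, against 56.4 and 54.1 CPM in KO spleen. Its difference between tissues was 0.60 ± 0.256 (edgeR adjusted p = 0.469), and 4.60% of all tested genes had these directions without overlap.

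Nop14 and Gnl2 had the opposite directions without overlap, lower in KO skin and higher in KO spleen, as had 3.50% of all tested genes. In spleen, Nop14 was at 44.7 and 50.1 CPM in WT and 53.1 and 56.5 CPM in KO, and Gnl2 at 87.05 and 80.7 CPM in WT and 87.14 and 93.95 CPM in KO. Neither difference between tissues passed the threshold (Nop14 -0.64 ± 0.279, Gnl2 -0.36 ± 0.224, edgeR adjusted p = 0.485 and 0.672).

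**Figure D3:**
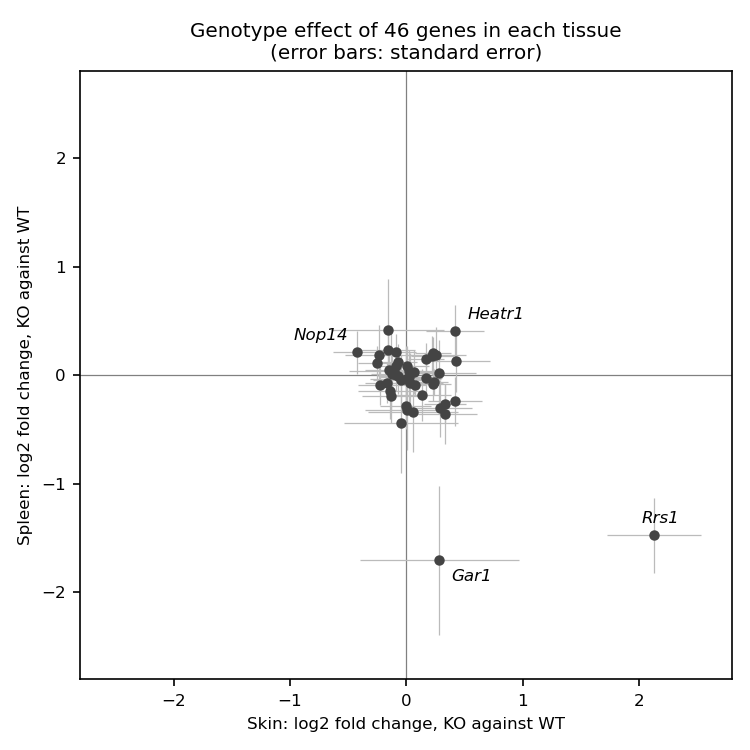
Log2 fold change of KO against WT in skin (horizontal) and in spleen (vertical) for the 46 genes, with standard errors as bars. Rrs1 lies far to the lower right at 2.13 and -1.48, Gar1 lies low with a long error bar, and the other genes gather around 0.

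**Figure D4:**
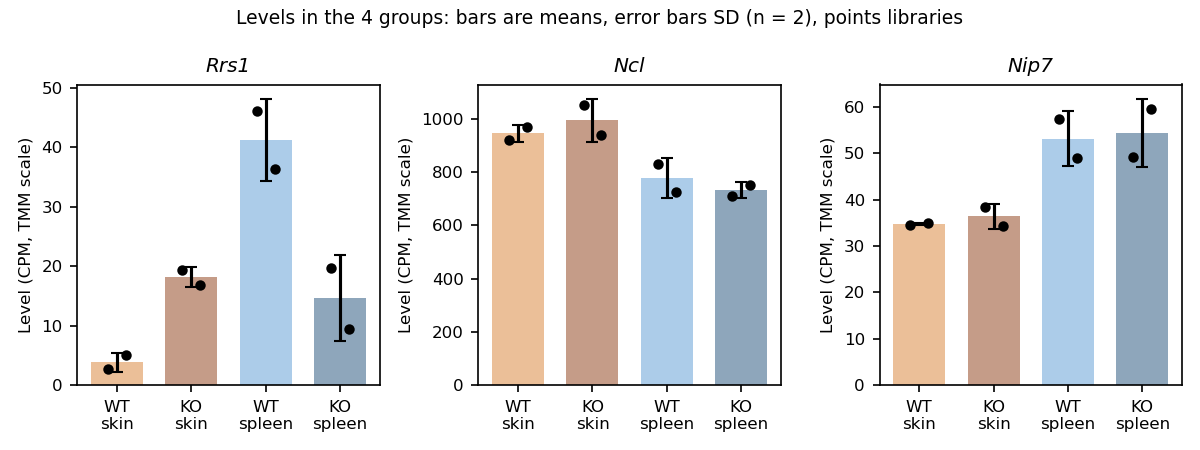
Levels of Rrs1, Ncl and Nip7 in CPM (vertical axes from 0) in the 4 groups. Bars are means, error bars SD (n = 2) and points libraries. Rrs1 is lowest in WT skin and highest in WT spleen with both KO groups between, Ncl is higher in skin, and Nip7 is higher in spleen.

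Between tissues, fewer of these genes were called than of the genes at large. In WT, skin against spleen, 1 of the 46 was higher (Ncl) and 5 were lower (Rrs1, Wdr75, Nip7, Wdr12 and Wdr43), together 13.04% against 31.8% of all tested genes (16.6% higher, 15.2% lower). In KO, 1 was higher (Ncl) and 3 were lower (Dkc1, Wdr74 and Nip7), 8.70% against 29.0% of all tested genes (16.3% higher, 12.7% lower). Ncl and Nip7 were called in both genotypes. The 2 comparisons use separate libraries.

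Values below 0 prevailed among the 46 genes in both genotypes. The median log2 fold change of the 46 genes was -0.14 in WT and -0.10 in KO, against -0.04 and -0.03 for all tested genes. Only 11 genes in WT (23.9%) and 15 in KO (32.6%) were above 0, against 47.6% and 47.9% of all tested genes. Changes within 0.5 on the log2 scale were seen for 36 genes in WT (78.3%) and 35 in KO (76.1%), against 49.3% and 51.2% of all tested genes. The libraries of the tissues did not overlap for 6 genes higher and 21 lower in WT skin, and for 5 higher and 13 lower in KO skin, where 66.6% and 65.2% of all tested genes did not overlap. In the same comparisons all 34 genes of a proliferation list were higher in skin in both genotypes, with median log2 fold changes of 1.40 and 1.42. The summed dissociation and heat shock genes ran from 23605 to 32214 CPM in skin and from 4828 to 5147 CPM in spleen. The part of either in the tissue differences of the 46 genes was not tested.

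Ncl was at 922 and 969 CPM for WT skin, 1052 and 938.5 for KO skin, 831 and 725.5 for WT spleen and 711 and 753 for KO spleen. All 4 skin libraries lay above all 4 spleen libraries. The log2 fold change was 0.28 ± 0.0991 in WT (edgeR adjusted p = 0.0389) and 0.44 ± 0.0992 in KO (adjusted p = 0.00255). The KO call held in all 17 alternatives. The WT call ended in 6, without WT skin replicate 1 or 2 or WT spleen replicate 2 among them. Its log2 fold change was 0.21 to 0.40 when a library was left out. On CPM of the total count, a scale added after seeing the data, where the median of all tested genes moved by -0.25 in WT and -0.24 in KO, the log2 ratio of Ncl was 0.03 and 0.21, which is 0.32 and 0.48 above that median.

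Nip7, a factor of 60S assembly and rRNA processing, went the other way. It was at 34.5 and 34.9 CPM for WT skin, 38.3 and 34.4 for KO skin, 57.3 and 48.9 for WT spleen and 49.1 and 59.5 for KO spleen. All skin libraries lay below all spleen libraries. The log2 fold change was -0.61 ± 0.210 in WT (edgeR adjusted p = 0.0342) and -0.57 ± 0.208 in KO (adjusted p = 0.0472). The WT call ended without any 1 of the 4 WT libraries, with DESeq2 and without the low-count filter. Its log2 fold change was -0.69 to -0.47 when a library was left out. The KO call ended in 11 of 17 alternatives, 7 of them leaving out a library. Over all 8 fits that left out a library the KO log2 fold change was -0.70 to -0.42.

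Rrs1 showed the strongest tissue difference of the 46 genes in WT, a log2 fold change of -3.30 ± 0.398 (edgeR adjusted p = 5.18e-06), held in all 17 alternatives (-3.69 to -2.92 when a library was left out). In KO the value was 0.31 ± 0.351 (adjusted p = 0.552). It was -0.11 (adjusted p = 0.888) without KO spleen replicate 2 and 0.90 (adjusted p = 0.129) without KO spleen replicate 1. The test of this contrast is the difference between tissues given above, since both are the same interaction.

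Of the other 60S factors, Wdr12, which with Bop1 and Pes1 forms the PeBoW complex, was at 29.6 and 18.5 CPM in WT skin and 42.1 and 42.6 CPM in WT spleen (log2 -0.79 ± 0.272, edgeR adjusted p = 0.0350). In KO it was at 34.9 and 24.7 CPM in skin and 28.6 and 39.6 CPM in spleen, which overlap (-0.19). The WT call ended with DESeq2 and without WT skin replicate 2 or either WT spleen library. Its log2 fold change was -1.17 to -0.51 when a library was left out.

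Wdr74, of early 60S assembly, was called in KO, at 34.4 and 24.4 CPM in skin and 45.9 and 53.4 CPM in spleen (log2 -0.74 ± 0.230, edgeR adjusted p = 0.0212). In WT it was at 30.3 and 35.9 CPM in skin and 42.4 and 41.8 CPM in spleen (-0.35, adjusted p = 0.276). The skin libraries were below the spleen libraries in both genotypes. The KO call ended without KO skin replicate 2 or KO spleen replicate 2 (0.151 to 0.205).

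Among the processome genes, Wdr75 and Wdr43 belong to the UTP-A module that also acts in rRNA transcription. Wdr75 was at 79.1 and 51.2 CPM in WT spleen, above its WT skin libraries (log2 -0.72 ± 0.228, edgeR adjusted p = 0.0219), and at 55.8 and 54.6 CPM in KO spleen, within the range of KO skin (-0.07, adjusted p = 0.858). Its call ended without WT skin replicate 1 or 2 or WT spleen replicate 1 (0.0503 to 0.380), and without WT spleen replicate 1 the log2 fold change was -0.36. Wdr43 was at 104 and 101 CPM for WT skin, 136 and 105 for KO skin, 148 and 129 for WT spleen and 172 and 147 for KO spleen. Skin was below spleen without overlap in both genotypes (-0.43 ± 0.153 in WT, adjusted p = 0.0414, and -0.40 in KO, adjusted p = 0.0570). The WT call ended in 10 of 17 alternatives, among them the removal of any WT library or of either KO spleen library.

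Dkc1 was at 139 and 96.5 CPM in WT spleen, against 120.0 and 102 CPM in KO spleen, each above its skin libraries given earlier. The log2 fold change was -0.62 ± 0.187 in KO (edgeR adjusted p = 0.0187) and -0.48 in WT (adjusted p = 0.0586). Dkc1 is X-linked, and replicate number and sex are the same division of these libraries. The part of sex in its values was not tested. With the replicate block the WT value passed the test (-0.47, edgeR adjusted p = 0.0312). It also passed with upper-quartile scaling (adjusted p = 0.0377), with no low-count filter (0.0459) and without WT spleen replicate 2 (0.0189). The KO call ended without KO skin replicate 2 or KO spleen replicate 1 (0.130 to 0.175). For the 7 called genes besides Rrs1, the tissue effect was not shown to differ between genotypes: the edgeR adjusted p of the difference was 0.533 to 0.993, with log2 differences of -0.40 to 0.66.

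**Figure D5:**
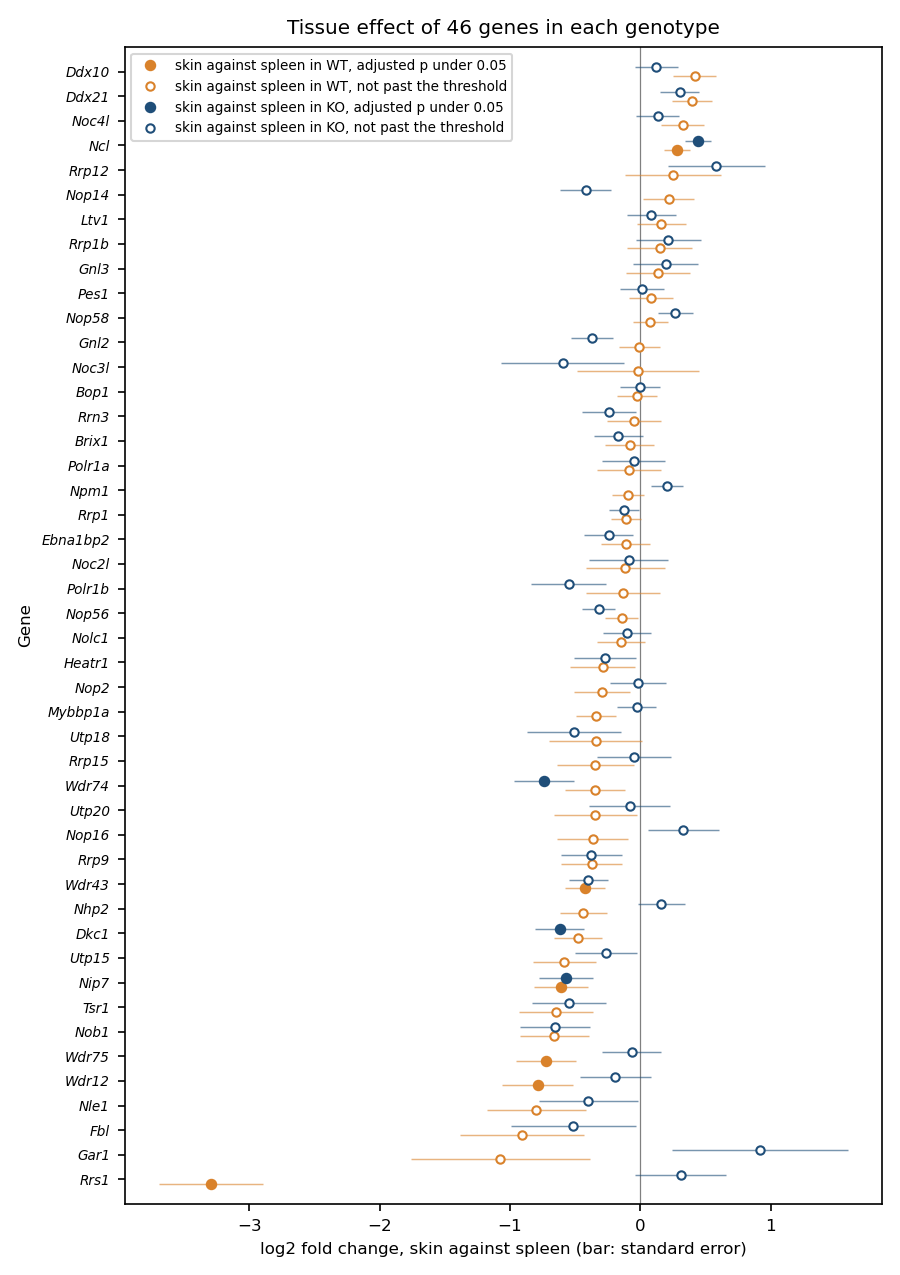
Log2 fold change of skin against spleen for each of the 46 genes in WT (orange) and KO (blue), with standard errors as bars and genes ordered by the WT value. Filled points passed an adjusted p of 0.05. Rrs1 is at -3.30 in WT and 0.31 in KO, and Ncl is the 1 gene with a filled point above 0 in both genotypes.

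Within the groups, the 2 KO skin libraries stood apart from each other in these genes. Replicate 1 was above replicate 2 for 38 of the 46 genes (82.6%, median log2 difference 0.35), against 49.99% of all tested genes. In WT skin this held for 19 of the 46, in WT spleen for 31 (67.4%) and in KO spleen for 20, all with the same difference in sex. Of 76 further ribosome biogenesis genes, 50 (65.8%, median 0.17) were higher in KO skin replicate 1. In WT skin replicate 1 was higher for 52 of these 76 (68.4%, median 0.16), so their lean was not particular to KO skin. It was higher for 43 in WT spleen and for 36 in KO spleen. KO skin replicate 1 also carried H2-Aa (41.5 CPM, against 2.41 in replicate 2), H2-Ab1 (47.6 against 6.64 CPM) and Cd8a (7.66 against 0 CPM). These are genes of antigen-presenting cells and CD8 T cells. Their part in the higher level of the 46 genes was not tested. Without KO skin replicate 1 the median log2 fold change in skin was -0.17, and without replicate 2 it was 0.14, so its sign depends on the library.

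Single replicates of a typical gene differed by more than the KO and WT group means did. A mean of 2 libraries varies less than 1 library, so these measures are not alike. The median absolute log2 difference between replicates over the 46 genes was 0.233 for WT skin, 0.363 for KO skin, 0.194 for WT spleen and 0.183 for KO spleen. That between the group means of KO and WT was 0.164 in skin and 0.140 in spleen. Between tissues it was 0.327 in WT and 0.260 in KO. Over all tested genes with a count in every library, the replicate medians were 0.238 to 0.284. Their genotype medians were 0.235 in skin and 0.206 in spleen. In 9 of the 46 genes (19.6%, against 6.65% of all tested genes) replicate 1 was above replicate 2 in all 4 groups: Fbl, Dkc1, Utp18, Wdr43, Rrp12, Nop2, Rrp1b, Bop1 and Noc2l. Of these, Dkc1 lies on the X chromosome.

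MYC binds the E-box CACGTG, a palindrome that reads the same on both strands. It was searched in windows from 250 bases before to 50 bases after the annotated start (RefSeq, GRCm38.p6). A window was present for 40 of the 46 genes. Those without were Rrp12, Npm1, Gnl2, Bop1, Rrs1 and Fbl. The E-box was in 10 of the 44 windows of these genes (22.7%), in 12.1% of the windows of cytosolic ribosomal protein genes, in 18.5% of those of the further biogenesis genes, in 10.2% of those of all tested genes and in 7.15% of all 32851 windows. A match is a description of the sequence and not a bound site. The genes with the E-box were Ltv1, Mybbp1a, Nle1, Nop2, Pes1, Rrn3, Tsr1, Utp18, Utp20 and Wdr43, of which Wdr43 was called in a tissue comparison.

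The 250 bases before the start are shown for Ncl and Nip7, called in both genotypes in opposite directions and both without the E-box, and for Rrn3, Nop2 and Utp18, which hold it. Rrn3 encodes the factor that recruits RNA polymerase I and Nop2 a methyltransferase of 28S rRNA. Sequences run 5′ to 3′ on the strand of the gene, and capitals mark the E-box. It begins 215 and 48 bases before the start in Rrn3, 60 bases before in Nop2 and 20 bases before in Utp18.
Ncl, chr1:86359456-86359705, minus strand: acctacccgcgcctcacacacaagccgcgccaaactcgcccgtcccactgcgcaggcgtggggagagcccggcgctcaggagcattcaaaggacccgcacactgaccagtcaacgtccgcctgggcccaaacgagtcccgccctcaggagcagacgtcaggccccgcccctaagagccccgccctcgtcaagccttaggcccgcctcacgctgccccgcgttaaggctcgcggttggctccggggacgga
Nip7, chr8:107056627-107056876, plus strand: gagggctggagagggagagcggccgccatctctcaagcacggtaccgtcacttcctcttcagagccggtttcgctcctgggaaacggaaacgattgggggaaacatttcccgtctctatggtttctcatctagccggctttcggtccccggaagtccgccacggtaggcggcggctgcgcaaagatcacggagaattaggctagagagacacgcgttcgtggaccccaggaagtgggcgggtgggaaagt
Rrn3, chr16:13780449-13780698, plus strand: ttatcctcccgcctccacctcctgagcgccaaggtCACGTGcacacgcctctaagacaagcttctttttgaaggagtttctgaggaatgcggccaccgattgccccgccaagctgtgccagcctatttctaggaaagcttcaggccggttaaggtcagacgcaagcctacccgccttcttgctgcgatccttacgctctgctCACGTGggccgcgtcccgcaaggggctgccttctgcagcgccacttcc
Nop2, chr6:125131633-125131882, plus strand: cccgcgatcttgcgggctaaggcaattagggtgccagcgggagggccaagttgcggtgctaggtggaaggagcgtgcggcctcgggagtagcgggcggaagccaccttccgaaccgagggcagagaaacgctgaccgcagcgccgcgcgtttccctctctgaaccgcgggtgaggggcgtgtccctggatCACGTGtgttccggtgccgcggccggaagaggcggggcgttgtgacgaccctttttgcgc
Utp18, chr11:93885767-93886016, minus strand: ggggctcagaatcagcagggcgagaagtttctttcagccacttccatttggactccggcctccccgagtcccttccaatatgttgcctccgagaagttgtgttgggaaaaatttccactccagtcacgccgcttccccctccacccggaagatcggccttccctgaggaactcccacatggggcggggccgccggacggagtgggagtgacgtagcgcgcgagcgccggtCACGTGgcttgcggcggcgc

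Myc itself was at 64.9 and 37.7 CPM for WT skin, 75.0 and 34.7 for KO skin, 146 and 85.0 for WT spleen and 108 and 157 for KO spleen. Its skin libraries lay below its spleen libraries in both genotypes, without passing the threshold (log2 -1.15 ± 0.498 for WT, edgeR adjusted p = 0.145, and -1.25 ± 0.494 for KO, 0.124). Its genotype effects were 0.09 in skin (adjusted p = 0.976) and 0.19 in spleen (0.982). Of 9 tested genes of the MYC network, Mxi1, a MYC antagonist, was higher in skin in WT (2.06 ± 0.224) and KO (1.68). In WT the antagonist Mxd3 was also higher (0.85) and Mga lower (-0.77).

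Other genes of the pathway showed a similar picture. Of 76 further biogenesis factors, none was called by edgeR between the genotypes in skin or in spleen. At an unadjusted p under 0.05, 4 were higher and 0 lower in skin, against 10.8% of all tested genes in either direction. In spleen 0 were higher and 2 lower, against 7.83%. Between tissues 2 were higher and 13 lower in WT skin, and 3 higher and 5 lower in KO skin. Of all tested genes, 16.6% were higher and 15.2% lower in WT skin, and 16.3% and 12.7% in KO skin. These shares hold for the lists that follow too. The lower ones in WT included Nol9 (-1.72 ± 0.321), a kinase of rRNA processing, Mdn1 (-1.14 ± 0.216), the large ATPase of 60S assembly, Ppan (-1.001 ± 0.211) and Nop9 (-1.25 ± 0.292). Mdn1 was also lower in KO skin (-1.34), with Nvl (-0.81) and Surf6 (-1.06), while Pno1, a 40S factor, was higher (0.83).

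Of 13 other genes of RNA polymerase I transcription, 1 was called between genotypes in skin, against 0.894% of all tested genes. Taf1d, a subunit of the promoter selectivity factor SL1, was at 127 and 103 CPM for WT skin, 68.4 and 56.4 for KO skin, 57.6 and 67.5 for WT spleen and 51.8 and 50.8 for KO spleen. WT skin stood above all other libraries. The log2 fold change of KO against WT in skin was -0.87 ± 0.181 (edgeR adjusted p = 0.0266), and the difference between tissues did not pass (-0.59 ± 0.258, adjusted p = 0.484). In spleen the KO libraries of Taf1d also lay below its WT libraries. Averaged over both tissues Taf1d was called lower in KO (-0.58, edgeR adjusted p = 0.0428), where 0.789% of all tested genes were called. Between tissues Taf1d was higher in WT skin (0.87), and Taf1c (-1.18), Cd3eap (-1.52) and Taf1a (-1.38) were lower. In KO, Polr1d was higher in skin (0.55) and Taf1c (-1.50), Ttf1 (-0.83) and Taf1a (-1.18) were lower.

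Of 11 tested subunits of the RNA exosome, which trims rRNA precursors, none was called by edgeR between genotypes, and 1 was lower in KO spleen at an unadjusted p under 0.05. In WT skin 4 were lower, among them Exosc4 (-0.89) and Exosc7 (-0.70), and Mphosph6 was higher (0.89), with a median of -0.44 over the subunits. In KO skin Exosc5 (-0.92) and Exosc4 (-0.81) were lower and Mphosph6 was higher (1.07), with a median of 0.06. Of 12 snoRNA host genes, Snhg15 was higher in skin in WT (2.24) and KO (2.47) and Snhg5 in WT (0.78) and KO (1.17). Snhg17 was lower in WT (-1.15) and KO (-1.16), and Snhg20 in WT (-1.33).

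The products the pathway assembles, 76 cytosolic ribosomal protein genes, were not called in skin or spleen between genotypes. In skin, 73 of the 76 had a log2 fold change above 0, with a median of 0.26. At an unadjusted p under 0.05, 23 were higher, against 10.8% of all tested genes in either direction. In spleen the median was -0.01, and 1 was lower at an unadjusted p under 0.05. Between tissues, 35 were called lower in WT skin (median -0.35) and 3 in KO skin (median -0.09). Within WT skin, replicate 1 was above replicate 2 for 5 of the 76.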

How the data were processed

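RNA was measured in 8 libraries of sorted mouse Tregs, 1000 cells each, in 4 groups of 2. Per the labels' protocols, cDNA was primed with oligo(dT), amplified by PCR and tagmented, and 25-base paired reads were sequenced. The authors deposited whole-number read counts per gene symbol. STAR 2.7.3a, featureCounts and build mm10 are named, per the submitters' processing notes. The sources used here do not give the annotation, the strand setting or the handling of multiply matching reads. Without strand, reads of Tsr1 and Srr (32.3% of Tsr1 exon bases shared) and of Noc2l and Samd11 (20.9%) cannot be told apart.

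Counts were fitted over the whole table with edgeR 4.0.16 (R 4.3.3): filterByExpr with a minimum count of 10, TMM scaling, robust quasi-likelihood test, 1 coefficient per group over all 8 libraries, prior count 2, and Benjamini-Hochberg adjustment over 12414 genes and 0.05 as threshold (common BCV 17.5%). Comparisons, 6 in number, set KO against WT within each tissue, as the mean and as the difference of both tissues, and skin against spleen within each genotype. Fold changes are on the log2 scale. Their standard errors were taken as the size of the fold change over the square root of the quasi-likelihood F statistic. Totals of 3115832 to 4466963 counts limit genes such as Gar1. Alternatives were upper-quartile and RLE scaling, DESeq2 1.42.0, limma-voom (limma 3.58.1), no low-count filter, a minimum count of 20, the compared groups alone, no robust estimation, a replicate block and leaving out each library. Summed levels on other scalings or gene subsets were added after seeing the data.

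Values in each library are given for genes past the threshold in any comparison and for the 2 genes of smallest p of each role class in the skin genotype comparison. The gene of highest level per kb of each class was also named, as were up to 4 called genes of each other list. The members, gene lists and roles were chosen with earlier results of these data known. The script was tested on simulated counts in which every gene had the same BCV, so that test does not speak to genes of larger spread. Exon lengths come from GENCODE M21 (GRCm38) and promoters from RefSeq (GRCm38.p6).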

Additional observations from a re-analysis of the deposited data

Results flagged for a closer look

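The genotype effect on Rrs1 differed between skin and spleen by 3.61 on the log2 scale in the test of the difference itself, with a rise in KO skin and lower values in KO spleen. Both KO skin libraries lay above both WT skin libraries, and both KO spleen libraries below both WT spleen libraries. Its lowest library held 11 counts. The test of the difference rests on WT skin replicate 1 and KO skin replicate 1, without either of which it did not pass.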

How the results depend on the processing

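No called value of a named gene changed direction. Of the 132 results for named genes, 55 changed sign under at least 1 alternative, none of them called in either setting and none above 0.31 in size as reported. The count of called genes in skin was 1, and 0 with limma-voom. It ranged from 0 to 1 when a library was left out, as did the counts in spleen and for the difference between tissues. In spleen the count was 0, and 1 with DESeq2, limma-voom or no low-count filter. Between tissues in WT, DESeq2 called 2 genes in place of 6, and leaving out a library gave 3 to 9. In KO, leaving out a library gave 2 to 6 genes in place of 4. The cause was not tested. The replicate block called 8 genes in WT and 5 in KO, and left the other counts of called genes as they were (1 in skin, 0 in spleen, 0 averaged and 1 for the difference). Same-numbered libraries share a sex, and their deviations over all tested genes correlated at 0.0283 to 0.112. Such a correlation cannot exclude a pairing that acts on some genes only. The main fit used no pairing, and the replicate block was the alternative with it. The summed level, skin against spleen, was -0.05 in WT and 0.02 in KO on the log2 scale. On CPM of the total count, chosen after seeing the data, it was -0.31 and -0.21. Without Ncl and Npm1, also chosen later, the WT value was -0.15 and the KO value turned negative. Upper-quartile, RLE and DESeq2 scaling moved the median of all genes by less than 0.1, and CPM of the total count moved it by -0.25 in WT and -0.24 in KO. Depth limits Gar1 and Fbl, and Rrs1 in WT skin.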

Other observations

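Rrs1 was 1 of 12 genes called in the difference of the genotype effects between tissues, and 7 of the 12 were higher in KO skin and lower in KO spleen without overlap of libraries. Of all tested genes, 4.60% had these directions without overlap. The 12 were selected by that same difference in these libraries, which favours opposite shifts, so their number does not show a shared pattern. The 6 besides Rrs1 were Vars, Psmd3, Tpi1, Zdhhc3, Peli1 and Unc119b. They were singled out after their values were seen. Psmd3, a subunit of the proteasome cap, was at 14.6 and 31.3 CPM for WT skin, 52.6 and 67.6 for KO skin, 190.02 and 175 for WT spleen and 60.7 and 42.2 for KO spleen. As with Rrs1, the WT groups were the ends of the order and the KO groups lay between them. Vars, the valyl-tRNA synthetase, was at 72.8 and 108 CPM for WT skin, 150.4 and 191 for KO skin, 183 and 170.0 for WT spleen and 86.3 and 73.1 for KO spleen. Its KO skin libraries reached the level of WT spleen, and its KO spleen libraries that of WT skin.

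Of the ribosomal protein genes, Rps2, also picked after its values were seen, had the group order of Rrs1. It was at 62.9 and 82.6 CPM for WT skin, 134 and 122 for KO skin, 418 and 306 for WT spleen and 146 and 76.9 for KO spleen. Its difference between tissues did not pass the threshold (2.52 ± 0.427, edgeR adjusted p = 0.0866), nor did that of the biogenesis factor gene Nop9 (1.71 ± 0.410, adjusted p = 0.100). Rps2 has near-identical copies in the mouse genome, so its count is uncertain.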
